A study of Rattus norvegicus with 9 samples.

Results

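The dual specificity MAP kinase phosphatases (MKPs) were followed in the superior mesenteric artery (SMA) of rats after ischemia. The group was taken by gene symbol as Dusp1, Dusp2, Dusp4, Dusp5, Dusp6, Dusp7, Dusp8, Dusp10 and Dusp16, and it makes up 9 of the 37203 gene symbols in the count table. All 9 passed the filter on low counts and were among the 15482 genes tested. The SMAs came from 8-week-old SD rats, an outbred laboratory stock, in 3 groups of 3 libraries that were normal, ischemic for 1 h or ischemic for 4 h. Ischemia was made by hemorrhage under pentobarbital anesthesia, in which blood was let through a catheter in a femoral artery, so that the whole animal and not the SMA alone was short of blood. Whether the normal rats had anesthesia and a catheter is not given in the sources used here. Each library is a whole arterial wall with what adhered to it, and in such bulk RNA a change in the number of cells of one kind and a change in RNA per cell cannot be told apart.

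MKPs take the phosphate off both the threonine and the tyrosine of the activation loop of MAP kinases (ERK, JNK and p38), which switches these kinases off. Dusp1, Dusp2, Dusp4 and Dusp5 are nuclear enzymes whose transcripts are early response genes in many cell types. Dusp6 and Dusp7 are cytoplasmic and prefer ERK, while Dusp8, Dusp10 and Dusp16 prefer JNK and p38. Since MAP kinase signalling switches on the transcription of several of them, MKPs are known as negative feedback regulators, and in vascular smooth muscle Dusp1 is known to follow growth factors, angiotensin and stretch.

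The promoters of Dusp1, Dusp5 and Dusp7 are shown, the latter pair because they had the lowest p in the comparisons with normal artery and Dusp1 for its motif copies, a choice made after the values were seen. Each is the run of 250 bases before the RefSeq start site in assembly GRCr8, written 5′ to 3′ on the strand of the gene, at chr10:17184603-17184852 for Dusp1, chr1:262543524-262543773 for Dusp5 and chr8:115887841-115888090 for Dusp7, all on the plus strand. Capitals mark a motif match on either strand.
Dusp1: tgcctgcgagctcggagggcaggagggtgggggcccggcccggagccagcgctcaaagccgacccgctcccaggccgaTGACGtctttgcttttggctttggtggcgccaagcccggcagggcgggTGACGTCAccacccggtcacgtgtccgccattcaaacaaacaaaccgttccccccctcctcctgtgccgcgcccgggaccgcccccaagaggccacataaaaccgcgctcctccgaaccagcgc
Dusp5: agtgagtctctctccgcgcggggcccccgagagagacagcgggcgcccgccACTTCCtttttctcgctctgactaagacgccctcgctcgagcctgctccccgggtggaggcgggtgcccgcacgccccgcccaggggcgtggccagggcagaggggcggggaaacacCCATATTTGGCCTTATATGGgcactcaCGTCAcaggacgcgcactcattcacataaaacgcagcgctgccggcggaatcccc
Dusp7: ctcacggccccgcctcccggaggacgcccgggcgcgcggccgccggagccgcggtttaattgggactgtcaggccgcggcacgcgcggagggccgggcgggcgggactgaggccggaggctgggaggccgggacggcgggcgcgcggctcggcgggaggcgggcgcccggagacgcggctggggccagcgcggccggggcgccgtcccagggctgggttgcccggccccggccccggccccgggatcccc
A promoter was found for 8 of the 9 genes, with none for Dusp4, and the same motifs were searched on both strands in all 33469 promoters of the table. The core of the cyclic AMP response element (CRE, TGACG) was present in 4 of the 8, namely Dusp1, Dusp2, Dusp5 and Dusp16, and in 18.2% of all promoters. In Dusp1 it occurred 3 times, and the copies at bases 124 to 120 and, on the other strand, at 121 to 117 before the start overlapped to form the full palindrome TGACGTCA. Dusp5 alone held the CArG box bound by serum response factor, with side by side copies at bases 82 to 73 and 72 to 63 before the start, while 1.5% of all promoters held one. Dusp5 also held the ETS core GGAAGT on the minus strand (19.2% of all promoters). None of the 8 held AP-1 (TGANTCA, 6.34% of all promoters), the NF-kB motif (6.33%) or the glucocorticoid receptor core TGTTCT (17.5%). The Dusp7 window held no match to any motif searched, and 84.4% of its bases were G or C. A match is a run of letters and not a measured binding site.

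**Figure D1:**
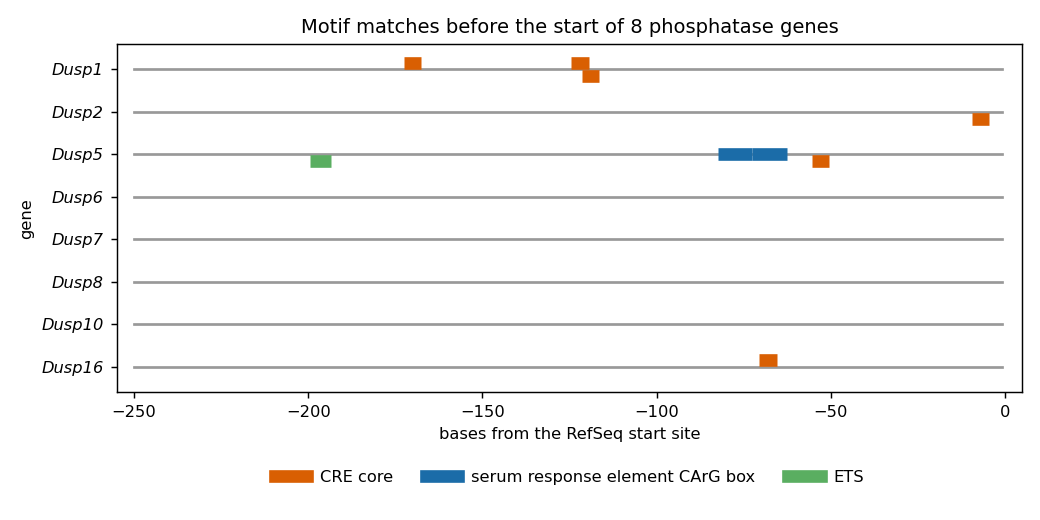
Motif matches in the 250 bases before the RefSeq start site of 8 MKP genes, with the distance from the start on the horizontal axis in bases and one line per gene. Marks above a line lie on the strand of the gene, marks below it on the other strand, and marks on the line match the motif on both. Dusp1 carries 3 CRE cores and Dusp5 is the one gene with CArG boxes, while Dusp6, Dusp7, Dusp8 and Dusp10 carry no match.

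Total counts per library ran from 13114273 to 15504240, and 1 CPM (counts scaled by TMM-adjusted library size) stood for 12.1 to 17.9 counts. All 8 smooth muscle markers (Myh11, Acta2 and others) were detected, so the libraries carried the transcripts of arterial muscle, but their summed level ran from 11225 to 49333 CPM in normal, from 12829 to 46819 CPM at 1 h and from 24372 to 68683 CPM at 4 h. Markers of sympathetic neurons, among them Th and Dbh of noradrenaline synthesis, set 3 libraries apart from the rest. Their sum over 15 genes was 7978 and 7939 CPM in replicates 1 and 3 at 1 h and 7825 CPM in replicate 3 at 4 h, against 36.3 to 894 CPM in the other 6 libraries. The 894 CPM was in 1 h replicate 2, above all normal libraries (36.3 to 593 CPM). Some results below are therefore also given with the sympathetic neuron score (the mean log2 CPM of these markers) as a covariate or without those 3 libraries. Leaving them out leaves 1 library at 1 h, which is then assumed to vary like the others. The score was higher in every 1 h library (5.17 to 8.25) than in every normal one (-0.56 to 4.69). In the 1 h comparison neuron content and ischemia therefore cannot be fully told apart, with the covariate or without those libraries. Endothelial, fibroblast, Schwann cell, adipocyte and macrophage markers were present in each group, but their sums varied between libraries. Schwann cell sums ran from 218 to 3807 CPM and adipocyte sums from 292 to 2266 CPM. Both were highest in normal replicate 1, as were the endothelial (1612 CPM) and macrophage (133 CPM) sums. No marker of any list was called in edgeR, while DESeq2 called the endothelial gene Egfl7 at both times. Neutrophil markers summed to 0.52 to 6.62 CPM over all libraries. Of the 9 lymphocyte markers, 1 had no count in any library and 1 passed the filter.

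In no comparison was an MKP transcript called, which required a change over 1.5-fold and an adjusted p under 0.05 (edgeR quasi-likelihood test, Benjamini-Hochberg adjustment over all genes). Calls were rare among all genes too. At 1 h against normal 0 of 9 MKPs were called, beside 0.0581% of all genes tested, and at 4 h against normal 0 of 9 beside 0.149%. For 4 h against 1 h the count was 0 of 9 beside 0% of all genes, and for the 3 groups together it was 0 of 9 beside 0.0581%. At an unadjusted p under 0.05 there were 2 MKPs at 1 h (Dusp5 and Dusp16) beside 18.6% of all genes, so the share of MKPs was near the background. At 4 h there were 4 (Dusp1, Dusp5, Dusp7 and Dusp8) beside 13.5%. At 4 h against 1 h there were 0 beside 3.06%, and in the test of the 3 groups together 2 (Dusp5 and Dusp7) beside 12.7%. DESeq2 called 1 MKP at 1 h beside 4.61% of all genes, 1 at 4 h beside 3.98%, and 1 for the 3 groups together beside 4.39%. For 4 h against 1 h it called 0 MKPs, and 0 among all genes. The median log2 fold change of the 9 was 0.92 at 1 h and 0.56 at 4 h, while that of all genes tested was -0.01 and 0.03. This difference was not tested. Several of the MKP values behind it moved with the neuron score as covariate or with single libraries left out, as given below. The 1 h and the 4 h comparison share the same 3 normal libraries and are not independent.

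**Figure D2:**
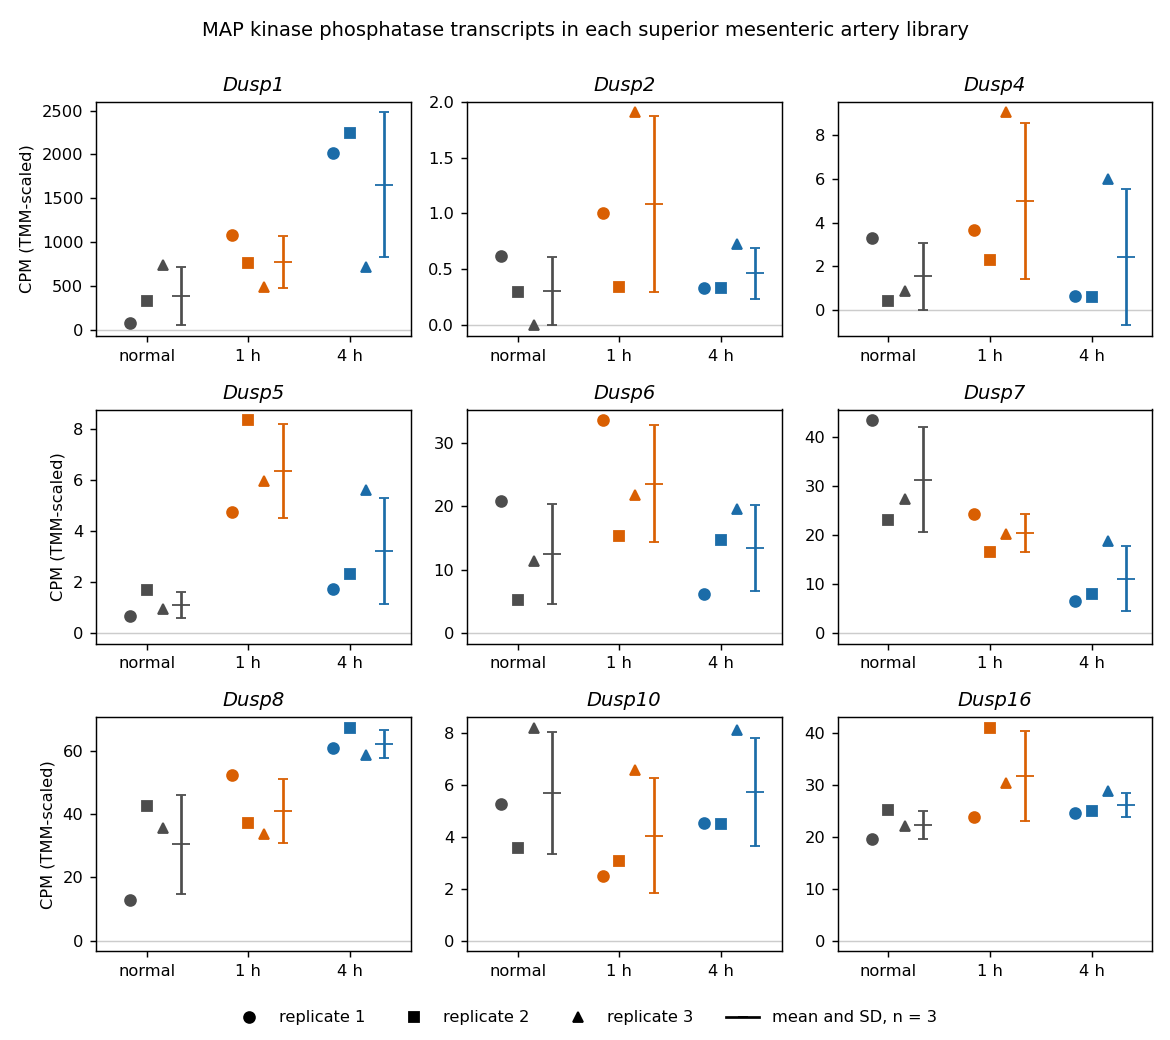
Level of each MKP transcript in CPM (vertical axis, starting at or below 0, scaled for each gene) in the 9 libraries, 3 each for normal, 1 h and 4 h. Symbols give the replicate number, and the bar gives the mean and SD over 3 libraries. For Dusp5 all 1 h libraries lie above the normal ones, for Dusp7 all 4 h libraries lie below them, and Dusp4 is highest in 1 h replicate 3 and 4 h replicate 3.

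Among the nuclear MKPs, Dusp5, an inducible phosphatase selective for ERK, gave the lowest p of the group. Its level was 0.67, 1.68 and 0.96 CPM in the normal libraries, 4.75, 8.36 and 5.96 CPM at 1 h and 1.74, 2.32 and 5.61 CPM at 4 h. Every ischemic library was thus above every normal library, and the 4 h libraries spread from just above the normal range into the 1 h range. The means were 1.10 ± 0.52, 6.35 ± 1.84 and 3.22 ± 2.09 CPM (SD, n = 3 each), which rested on 12 to 23, 71 to 125 and 21 to 85 counts per library. At 1 h Dusp5 was 5.76-fold above normal, or 2.53 on the log2 scale (SE 0.55, 95% interval 1.27 to 3.78), with an adjusted p of 0.155. In DESeq2 the same change was 2.56 (SE 0.60) with an adjusted p of 0.00214, a call in a test that called 4.61% of all genes. The 1 h log2 fold change stayed between 2.26 and 2.94 when each library was left out in turn. With the sympathetic neuron score as covariate in edgeR it was 2.26 (SE 0.64, adjusted p = 0.337). Without the 3 libraries high in neuron markers it was 2.94, which rests at 1 h on replicate 2 alone, the library highest in Dusp5.

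At 4 h the log2 fold change of Dusp5 was 1.56 (SE 0.54, interval 0.32 to 2.79, adjusted p = 0.272), which is 2.94-fold. It depended on replicate 3 at 4 h, a library high in neuron markers, and was 0.89 without it. With the sympathetic neuron score as covariate in edgeR the 4 h value was 1.44 (SE 0.56, adjusted p = 0.251). Across all genes, groups that did not overlap made up 26.3% at 1 h and 18.7% at 4 h, and among the MKPs this held for 1 gene at 1 h (Dusp5) and for 3 genes at 4 h (Dusp5, Dusp7 and Dusp8).

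Dusp1, the broad nuclear phosphatase for p38, JNK and ERK, rested on 1475 to 27005 counts per library. It stood at 82.6, 325 and 737 CPM in the normal libraries, at 1077, 767 and 483 CPM at 1 h and at 2014, 2239 and 715 CPM at 4 h. The normal libraries spread widely, normal replicate 3 reached the level of some ischemic libraries, and both comparisons overlapped. The means were 382 ± 331, 776 ± 297 and 1656 ± 823 CPM (SD, n = 3 each). The log2 fold change was 1.02 (SE 0.73, interval -0.66 to 2.71, adjusted p = 0.438) at 1 h and 2.12 (SE 0.76, interval 0.38 to 3.85, adjusted p = 0.282) at 4 h. Single normal libraries moved these values: without normal replicate 1 they were 0.55 and 1.64, and without normal replicate 3 they were 1.93 and 3.02. The smooth muscle marker sum was lowest in normal replicate 1 (11225 CPM), where Dusp1 was lowest, and highest in 4 h replicate 1 (68683 CPM). Within each group the library lowest in this sum was also lowest in Dusp1, while at 1 h and at 4 h the other libraries were in opposite order. The part of smooth muscle content in the Dusp1 values was not tested. In 1 h replicate 3 the sum was 12829 CPM with Dusp1 at 483 CPM. Normal replicates 2 and 3 had sums of 48147 and 49333 CPM, with Dusp1 at 325 and 737 CPM. With a smooth muscle score as covariate, chosen after seeing the data, the log2 fold change of Dusp1 was 1.74 (SE 0.48, adjusted p = 0.124) at 1 h and 1.82 (SE 0.47, adjusted p = 0.128) at 4 h. With the sympathetic neuron score instead it was 1.60 (SE 0.88) and 1.97 (SE 0.72).

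Dusp4, a nuclear phosphatase for ERK and JNK, was at 3.30, 0.44 and 0.89 CPM in normal, 3.68, 2.27 and 9.03 CPM at 1 h and 0.66, 0.58 and 6.01 CPM at 4 h. Its highest 3 values were in the 3 libraries high in sympathetic neuron markers, and the groups overlapped at both times. The log2 fold change was 1.67 (SE 1.04, interval -0.72 to 4.06, adjusted p = 0.381) at 1 h and 0.64 (SE 1.04, interval -1.75 to 3.03, adjusted p = 0.815) at 4 h. Leaving out single libraries moved the 1 h value from 0.91 (without 1 h replicate 3) to 2.90 (without normal replicate 1). With the sympathetic neuron score as covariate it was -0.09 (SE 0.57) at 1 h and -0.00170 (SE 0.20) at 4 h. Dusp2, known best as an inducible phosphatase of immune cells, was near the limit of detection. It had 11, 4 and 0 counts in normal, 15, 5 and 31 at 1 h and 4, 4 and 11 at 4 h, and the 0 in normal replicate 3 allows a level of up to 0.222 CPM. Its fitted log2 fold changes of 1.75 (SE 0.93, adjusted p = 0.314) and 0.56 (SE 0.99, adjusted p = 0.833) rest on these few counts. The 1 h value ranged from 1.04 to 2.82 as single libraries were left out, the lowest without 1 h replicate 3 and the highest without normal replicate 1. The libraries with most Dusp2 counts, replicate 3 and replicate 1 at 1 h, also ranked among those high in neuron markers, and lymphocyte markers summed to 79.2 CPM in the former, 6.42 CPM in the latter and 55.1 CPM in normal replicate 1, against 0.91 to 2.97 CPM in the other 6. The part of these markers in the Dusp2 values was not tested. Without the 3 libraries high in neuron markers the 1 h log2 fold change was 0.07 (SE 1.42).

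Of the cytoplasmic pair, Dusp7, which prefers ERK, was at 43.4, 23.1 and 27.3 CPM in normal, 24.3, 16.6 and 20.2 CPM at 1 h and 6.53, 8.04 and 18.7 CPM at 4 h. All 4 h libraries lay below all normal libraries, while 1 h overlapped normal through replicate 1. The means were 31.3 ± 10.7, 20.4 ± 3.85 and 11.1 ± 6.62 CPM (SD, n = 3 each), with 79 to 775 counts per library. The log2 fold change was -0.62 (SE 0.41, interval -1.56 to 0.33, adjusted p = 0.408) at 1 h and -1.49 (SE 0.42, interval -2.46 to -0.53, adjusted p = 0.189) at 4 h. The 1 h value was -1.31 (SE 0.25, adjusted p = 0.163) with the sympathetic neuron score as covariate, -0.89 (SE 0.41) without the 3 libraries high in neuron markers and -0.31 without normal replicate 1. At 4 h it ranged from -2.10 (without 4 h replicate 3) to -1.18 (without normal replicate 1). It was called by DESeq2 (-1.47, SE 0.45, adjusted p = 0.0345), which called 3.98% of all genes at 4 h, and with the sympathetic neuron score as covariate (-1.64, SE 0.22, adjusted p = 0.0255), where 0.924% of all genes were called. Of the 8 endothelial markers, all detected, 2 were lower at an unadjusted p under 0.05 at each time and 0 were called in edgeR. Their sums overlapped, at 879 to 1612, 689 to 1150 and 714 to 985 CPM in normal, 1 h and 4 h, and their part in the Dusp7 values was not tested. Schwann cell, adipocyte and macrophage sums were, like Dusp7, highest in normal replicate 1, and their part was not tested either.

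Dusp6, the ERK phosphatase best known as a target of ERK signalling itself, was at 20.8, 5.25 and 11.3 CPM in normal, 33.6, 15.3 and 21.7 CPM at 1 h and 6.12, 14.7 and 19.5 CPM at 4 h. The groups overlapped at both times, and normal replicate 1 was above 4 of the 6 ischemic libraries. The log2 fold change was 0.92 (SE 0.57, interval -0.38 to 2.21, adjusted p = 0.375) at 1 h and 0.11 (SE 0.56, interval -1.18 to 1.40, adjusted p = 0.952) at 4 h. The 1 h value was 0.17 (SE 0.49) with the sympathetic neuron score as covariate, and ranged from 0.55 (without normal replicate 2) to 1.51 (without normal replicate 1). The 4 h value took either sign, from -0.26 to 0.70, as single libraries were left out, and was -0.04 with library size alone as scaling.

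Among Dusp8, Dusp10 and Dusp16, which prefer JNK and p38, the 4 h difference from normal was largest for Dusp8. It was at 12.9, 42.7 and 35.7 CPM in normal, 52.4, 37.0 and 33.5 CPM at 1 h and 60.8, 67.2 and 58.8 CPM at 4 h. The 4 h libraries were close to each other and above all 6 others, whereas 1 h lay within or just above the normal range. The means were 30.4 ± 15.6, 41.0 ± 10.02 and 62.3 ± 4.43 CPM (SD, n = 3 each). The log2 fold change was 0.43 (SE 0.39, interval -0.46 to 1.32, adjusted p = 0.543) at 1 h and 1.03 (SE 0.39, interval 0.14 to 1.93, adjusted p = 0.308) at 4 h, the latter 2.05-fold. Normal replicate 1, which was low in Dusp8, carried part of this: without it the 4 h value was 0.67 and the 1 h value 0.06. That library was also low in Dusp1 and in smooth muscle markers. With the smooth muscle score as covariate, chosen after seeing the data, the value of Dusp8 was 0.94 (SE 0.31) at 4 h and 0.69 (SE 0.32) at 1 h.

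Dusp16, which holds back JNK, was at 19.7, 25.1 and 22.2 CPM in normal, at 23.9, 41.0 and 30.4 CPM at 1 h and at 24.6, 25.0 and 28.9 CPM at 4 h. The 1 h group reached above the normal range through replicates 2 and 3, while replicate 1 lay within it. The log2 fold change was 0.51 (SE 0.22, interval 0.00 to 1.02, adjusted p = 0.268) at 1 h and 0.23 (SE 0.22, interval -0.28 to 0.74, adjusted p = 0.664) at 4 h, and the 1 h value was 0.28 without 1 h replicate 2 and 0.89 (SE 0.25, adjusted p = 0.422) without the 3 libraries high in neuron markers. Dusp10, which dampens stress activated kinases, was at 5.26, 3.58 and 8.20 CPM in normal, 2.48, 3.07 and 6.57 CPM at 1 h and 4.55, 4.48 and 8.12 CPM at 4 h. These ranges overlapped throughout, with log2 fold changes of -0.49 (SE 0.47, interval -1.57 to 0.60, adjusted p = 0.574) and 0.01 (SE 0.47, interval -1.07 to 1.09, adjusted p = 0.995). The 1 h value of Dusp10 ranged from -1.05 (without 1 h replicate 3) to -0.13 (without normal replicate 3), and was -1.04 (SE 0.47, adjusted p = 0.518) with the sympathetic neuron score as covariate. The intervals of Dusp10 and Dusp16 leave room for changes of the size seen in some other members, so these values do not show constancy.

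**Figure D3:**
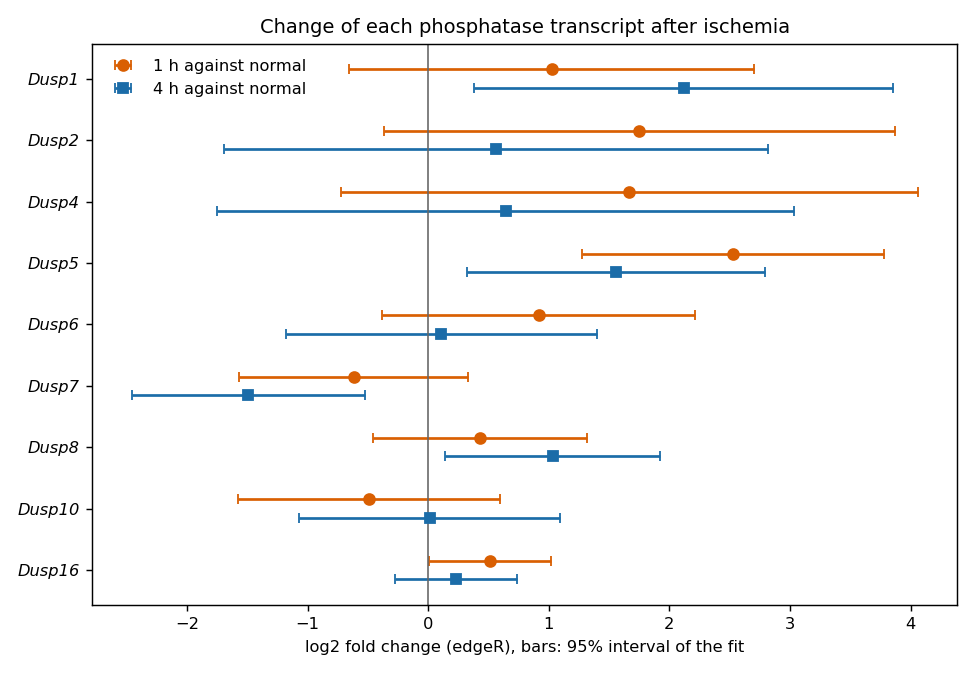
Log2 fold change of each MKP transcript at 1 h (circles) and 4 h (squares) against normal on the horizontal axis, with bars for the 95% interval of the edgeR fit over all 9 libraries. The interval of Dusp5 lies above 0 at both times and that of Dusp7 below 0 at 4 h. Those of Dusp1 and Dusp8 lie above 0 at 4 h and that of Dusp16 just above 0 at 1 h. The intervals of Dusp2, Dusp4, Dusp6 and Dusp10 span 0 at both times. The intervals are not adjusted for the number of genes tested.

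Between 4 h and 1 h no MKP passed the threshold, and each had an adjusted p of 0.832 in edgeR. Dusp5 had a log2 difference of 4 h against 1 h of -0.97 (SE 0.51, interval -2.14 to 0.20), Dusp7 of -0.87 (SE 0.42, interval -1.83 to 0.08) and Dusp6 of -0.81 (SE 0.57). Dusp1 had 1.09 (SE 0.74) and Dusp8 0.60 (SE 0.39), and Dusp8 was the 1 gene of 9 whose groups did not overlap, beside 6.24% of all genes. The remaining values were -1.19 (SE 0.90) for Dusp2, -1.03 (SE 1.02) for Dusp4, 0.50 (SE 0.47) for Dusp10 and -0.28 (SE 0.22) for Dusp16. The intervals were wide, so a different course from 1 h to 4 h was not shown for any MKP and neither was a like one. Leaving out 4 h replicate 3 raised the number of MKPs at an unadjusted p under 0.05 from 0 to 3, while the share of all genes at that level went from 3.06% to 22.0%. In the test of the 3 groups together the lowest adjusted p values were 0.213 for Dusp5 and 0.310 for Dusp7. DESeq2 called Dusp5 there (adjusted p = 0.00933, with 4.39% of all genes called), and without 4 h replicate 3 both Dusp5 and Dusp7 were called in edgeR, each with an adjusted p of 0.0497, beside 2.61% of all genes.

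**Figure D4:**
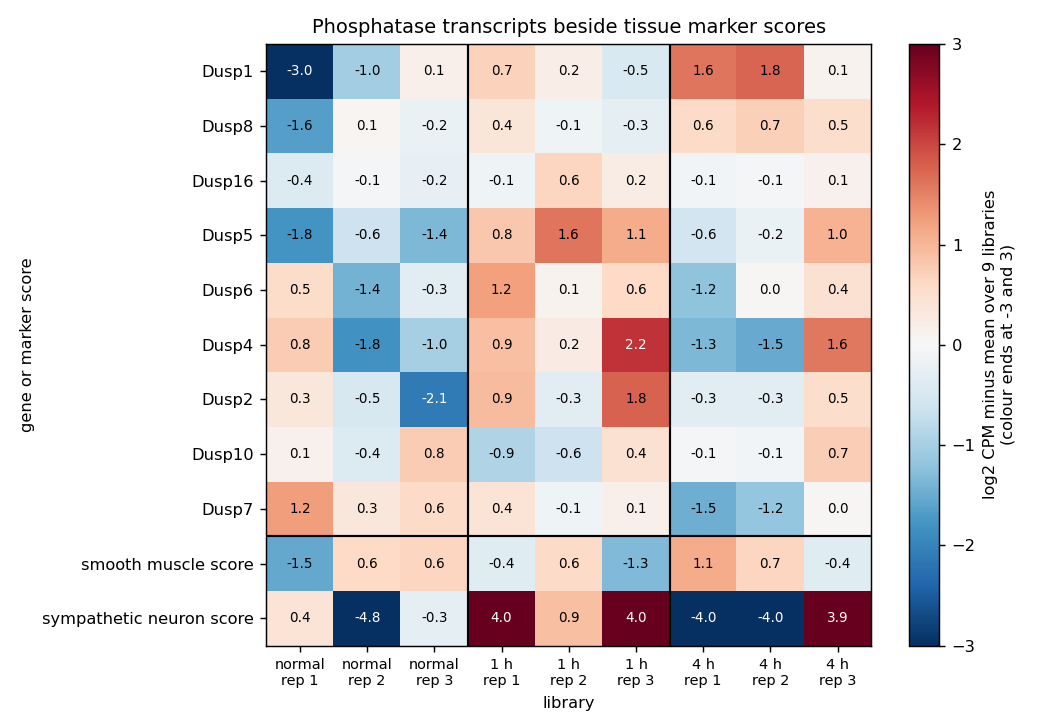
Log2 CPM of each MKP transcript minus its own mean over the 9 libraries (rows, values printed in the cells, colours ending at -3 and 3), above the smooth muscle and sympathetic neuron marker scores centred in the same way. Columns are the 9 libraries in groups of 3. Dusp1 and Dusp8 are lowest in normal replicate 1, where the smooth muscle score is also lowest, and Dusp4 is highest in the 3 libraries with the highest neuron score.

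The rest of the MAP kinase pathway was read from 7 lists with 97 genes in all, of which 87 were tested. None was called by edgeR at 1 h, at 4 h or for 4 h against 1 h. DESeq2 called 4 of the 87 at 1 h (Mapk4, Map2k4, Map3k8 and Map3k6), 4 at 4 h (Map2k4, Map3k6, Dusp18 and Ppp2cb) and 0 for 4 h against 1 h, which is near the share it called among all genes (4.61% at 1 h and 3.98% at 4 h). At an unadjusted p under 0.05 there were 17 higher and 7 lower genes at 1 h, 11 higher and 8 lower at 4 h, and 2 higher and 2 lower for 4 h against 1 h. Among all genes 9.36% were higher and 9.22% lower at that level at 1 h, and 5.68% and 7.85% at 4 h. Among the MAP kinases themselves 4 of 12 were higher and 1 lower at that level at 1 h, and their median log2 fold change was 0.59 at 1 h and 0.32 at 4 h. The p38 kinase Mapk14 was at 105 to 132 CPM in normal, 68.6 to 96.8 CPM at 1 h and 82.5 to 93.1 CPM at 4 h. Every ischemic library of Mapk14 was thus below the normal ones, with log2 fold changes of -0.52 (SE 0.17, adjusted p = 0.225) and -0.44 (SE 0.17, adjusted p = 0.324). The atypical kinase Mapk6 (ERK3) lay the other way, at 0.69 (SE 0.25, adjusted p = 0.236) and 0.63 (SE 0.25, adjusted p = 0.322).

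Upstream, Map2k4, which activates JNK and p38, was at 14.5 to 15.9 CPM in normal, 24.2 to 32.1 CPM at 1 h and 22.3 to 32.5 CPM at 4 h. Its normal libraries were close together and all ischemic ones lay above, with log2 fold changes of 0.93 (SE 0.20, adjusted p = 0.152) and 0.82 (SE 0.20, adjusted p = 0.143). Map2k1, the ERK kinase, had 0.94 (SE 0.34, adjusted p = 0.237) at 1 h and was at 104 to 111 CPM in the 3 libraries high in neuron markers against 42.6 to 57.0 CPM elsewhere. Map2k7, which activates JNK, had -0.47 (SE 0.15, adjusted p = 0.245) at 4 h. Among the kinases above these, Map3k8 (Tpl2 or Cot, which feeds the ERK pathway in inflammatory signalling) was at 7.84, 9.41 and 4.65 CPM in normal, 13.6, 57.8 and 47.2 CPM at 1 h and 14.2, 17.2 and 26.7 CPM at 4 h. All ischemic libraries of Map3k8 were above normal, and the 1 h log2 fold change was 2.44 (SE 0.53, adjusted p = 0.156). The stress kinase gene Map3k6 had 2.37 (SE 0.56, adjusted p = 0.171) at 1 h and 2.10 (SE 0.55, adjusted p = 0.165) at 4 h, while Map3k3 had -0.51 (SE 0.17, adjusted p = 0.258) at 4 h.

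Among the downstream kinases and scaffolds, Mknk1, which phosphorylates the cap binding factor eIF4E, had a log2 value of -0.66 (SE 0.22, adjusted p = 0.225) and Rps6ka4 of -0.71 (SE 0.34, adjusted p = 0.284) at 1 h. Mapkapk2, the p38 effector that stabilises inflammatory transcripts, had 0.72 (SE 0.28, adjusted p = 0.313) and Rps6ka5 -0.52 (SE 0.22, adjusted p = 0.352) at 4 h. The ERK scaffold Lamtor3 had -0.55 (SE 0.23, adjusted p = 0.259) and the JNK scaffold Mapk8ip1 1.14 (SE 0.53, adjusted p = 0.280) at 1 h, and Mapk8ip1 was at 105 to 115 CPM in the libraries high in neuron markers and at 30.8 to 43.6 CPM in the others. At 4 h Lamtor3 had -0.34 (SE 0.23) and Arrb2 -0.56 (SE 0.34), with overlapping groups.

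Phosphatases outside the MKP group were also read. Of the 11 other phosphatases that act on MAP kinases, 5 at 1 h and 5 at 4 h were higher at an unadjusted p under 0.05, with 0 and 1 lower (all genes in either direction 18.6% at 1 h and 13.5% at 4 h), and the list medians were 0.46 and 0.43. Ppp2cb, a catalytic subunit of protein phosphatase PP2A, was at 86.5, 97.0 and 109 CPM in normal, 130, 145 and 126 CPM at 1 h and 164, 150 and 152 CPM at 4 h. The groups were tight and did not overlap, with log2 fold changes of 0.46 (SE 0.15, adjusted p = 0.220) and 0.67 (SE 0.15, adjusted p = 0.123). The regulatory subunit gene Ppp2r2a had 0.52 (SE 0.17, adjusted p = 0.211) at 1 h, and Ppm1l 0.85 (SE 0.31, adjusted p = 0.293) at 4 h. In the list of atypical and other dual specificity phosphatases, Dusp18 was at 48.7, 28.5 and 35.9 CPM in normal, 23.9, 25.7 and 24.1 CPM at 1 h and 19.6, 21.8 and 22.4 CPM at 4 h. All ischemic libraries of Dusp18 were below all normal ones, at -0.62 (SE 0.21, adjusted p = 0.225) and -0.83 (SE 0.21, adjusted p = 0.154). The slingshot phosphatase gene Ssh3 had -0.75 (SE 0.29, adjusted p = 0.250) at 1 h, and Dusp23 -1.07 (SE 0.41, adjusted p = 0.308) at 4 h with overlapping groups.

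Finally, the genes most like Dusp5 and Dusp7 across the 9 libraries were sought, as the MKPs with the lowest p in the test of the 3 groups together. Likeness was the mean absolute difference of log2 CPM over 9 libraries after each gene was centred on its own mean, so that it is a description and is not tested. For Dusp5 the closest of 10447 genes were Slc7a1 (0.327), an arginine transporter, Plk3 (0.330), a stress response kinase, F2rl1 (0.362), the protease activated receptor, Rnf144b (0.396), a ubiquitin ligase, and Zc3h12a (0.399), an RNase that degrades inflammatory transcripts. The median over all genes compared was 1.08. F2rl1 was at 1.33 to 4.38 CPM in normal, 7.69 to 21.8 CPM at 1 h and 5.29 to 16.7 CPM at 4 h. Like Dusp5 it had its highest 4 h value in replicate 3, which the choice by likeness over the same libraries favours. For Dusp7 the closest of 10446 genes were Rab3il1 (0.174), Zfp12 (0.198), Tmem255b (0.232), Rnf213 (0.242) and Snapc5 (0.247), against a median of 0.718. Rab3il1 was at 8.39 to 16.6 CPM in normal, 5.55 to 7.83 CPM at 1 h and 2.98 to 7.59 CPM at 4 h. Its highest value was in normal replicate 1, as for Dusp7, which the choice by likeness favours in the same way.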

How the data were processed

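SMAs of SD rats gave 9 libraries (3 normal, 3 after 1 h and 3 after 4 h of ischemia). Groups and replicate numbers came from the sample titles. The authors deposited raw counts, whole numbers per gene symbol, in one table, and each of its 9 columns matched 1 sample (0 columns were left unmapped). The submitters' processing notes name HISAT2 with no version. The counting program, genome build, annotation and use of strand are not given in the sources used here, so reads of overlapping antisense genes may be included. The methods of the study describe Agilent microarrays for these samples, but the table holds counts and was analysed as such. RNA was taken up in Trizol and libraries were sequenced on an Illumina HiSeq X instrument.

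The quasi-likelihood F-test of edgeR 4.0.16 (R 4.3.3) was run after filterByExpr and TMM scaling (factors 0.814 to 1.22), in one fit of all 9 libraries by group. The biological coefficient of variation was 51.6%. Benjamini-Hochberg adjustment covered all 15482 genes, and calls needed both an adjusted p under 0.05 and more than a 1.5-fold change, as in the methods of the study. Levels are CPM on TMM-scaled library sizes, and errors are SD over 3 libraries or the SE of the fit. P-values measure the spread between these libraries. Each library was treated as its own rat, since 3 rats are described for every group. The methods speak of 3 individuals, but the artery was taken after the rat was killed, so the same rat could not serve in different groups. No library was a copy of another (lowest chi-square per degree of freedom 23.2). DESeq2 1.42.0, other scalings, no filter, an earlier form of the quasi-likelihood fit, the groups compared alone, a replicate block, marker scores as covariates and leaving out libraries were tried. Likeness and marker scores used log2 CPM with a prior count of 2. The tests were tried on simulated counts.

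The members, pathway lists and markers were chosen with earlier results of these data known. Every MKP is named. In each pathway list and each comparison with normal, up to 2 genes with the lowest unadjusted p among those averaging at least 5 CPM are named where none was called. Likeness is given for the 5 closest genes above 5 CPM to each of 2 MKPs. Promoters came from RefSeq assembly GRCr8, which was used for sequences and names, and the build behind the counts may differ.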

Additional observations from a re-analysis of the deposited data

How the results depend on the processing

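Over 512 log2 fold changes of single MKPs under alternative settings, 494 kept their direction and their side of the adjusted threshold, 15 reversed and 3 passed it. The number of MKPs called was 0 in edgeR and became 1 with DESeq2 in 3 tests. These were 1 h (Dusp5, 4.61% of all genes called), 4 h (Dusp7, 3.98%) and the 3 groups together (Dusp5, 4.39%). The number also became 1 at 4 h with the sympathetic neuron score as covariate (Dusp7, 0.924% of all genes called). For the 3 groups together it ranged from 0 to 2 as single libraries were left out, with 2 without 4 h replicate 3 (2.61% of all genes called). The 2 MKPs at an unadjusted p under 0.05 at 1 h (18.6% of all genes at that level) became 1 in 4 settings. These were library size only as scaling (15.7% of all genes), no filter on low counts (14.8%), the earlier quasi-likelihood fit (16.7%) and only the groups compared (21.9%). The number became 5 with the smooth muscle score as covariate (23.4%), and ranged from 1 to 4 with single libraries left out (9.36% to 25.2%). The 4 at 4 h ranged from 2 to 4 with single libraries left out (10.6% to 14.0% of all genes), became 5 with the smooth muscle score as covariate (19.2%) and 2 (12.5%) without the 3 libraries high in neuron markers. The 0 for 4 h against 1 h became 1 with only the groups compared (2.34% of all genes), and ranged from 0 to 3 (0.99% to 22.0%) with single libraries left out. It also moved without the 3 libraries high in neuron markers, but no count is given because 1 h then rests on replicate 2 alone. The 2 for the 3 groups together ranged from 1 to 4 (8.12% to 25.5% of all genes) and became 4 (17.7%) with the smooth muscle score as covariate. Both the smooth muscle covariate and the set without 3 libraries were chosen after seeing the data. The causes of these shifts were not tested.

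The 15 reversed values all belonged to Dusp4, Dusp6 and Dusp10. With the sympathetic neuron score as covariate, Dusp4 was at -0.0860 at 1 h, -0.00170 at 4 h and 0.0843 for 4 h against 1 h, and Dusp10 at -0.0290 at 4 h. With library size only, Dusp6 was at -0.0426 and Dusp10 at -0.0751 at 4 h, where this scaling moved the median of all genes from 0.03 to -0.15. Without the 3 libraries high in neuron markers the 4 h values were -1.31 for Dusp4, -0.23 for Dusp6 and -0.32 for Dusp10. With single libraries left out they ranged from -1.34 to 1.87, from -0.26 to 0.70 and from -0.33 to 0.37, the lowest in each case without 4 h replicate 3.

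A replicate block left 0 MKPs called, with Dusp5 at 2.56 (SE 0.48) at 1 h and Dusp7 at -1.54 (SE 0.42) at 4 h. Libraries with the same number came from different rats, since the artery was taken after death. Whether they belong together in some other way could not be settled, since each group holds 3 libraries. Deviations of same-numbered libraries correlated from -0.75 to 0.74 with 5 of 9 pairs over 0.1, and 2 of 9 libraries correlated best with their own number in both other groups. For replicate 2 the correlations were 0.49 (normal and 1 h), 0.37 (normal and 4 h) and 0.69 (1 h and 4 h). Among all genes, leaving out single libraries gave 0 to 30 calls at 1 h (9 with all), 1 to 15 at 4 h (23 with all) and 0 to 416 for the 3 groups together (9 with all), and DESeq2 gave 702, 606 and 669. Dusp2 at 4 h could not be tested with only the groups compared, since it did not pass the filter there. Dusp2 had 0 to 31 counts per library, and spread and depth were not separated for it.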

Other observations

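Among the other dual specificity phosphatases, Dusp26, Dusp15 and Dusp22 were highest in the 3 libraries high in sympathetic neuron markers, and they are named here after their values were seen. Dusp26 was at 33.7, 36.7 and 25.7 CPM in the 3 libraries high in sympathetic neuron markers and at 0 to 4.28 CPM in the other 6. Dusp15 was at 11.9, 9.52 and 12.6 CPM in those 3 libraries and at 0.07 to 2.21 CPM elsewhere, and Dusp22 at 32.8, 33.2 and 27.5 CPM against 4.88 to 15.6 CPM. For Dusp26 and Dusp15 all 1 h libraries also lay above all normal ones, while 26.3% of all genes had groups that did not overlap at 1 h. Their 1 h log2 fold changes in edgeR were 4.22 (adjusted p = 0.266) and 3.19 (adjusted p = 0.297), and neither was called. Dusp3, an atypical phosphatase for ERK and JNK, was at 145 to 227 CPM in all 9 libraries with log2 fold changes of 0.06 at 1 h and 0.11 at 4 h. Dusp11, Dusp13, Dusp21 and Dusp29 (under its older symbol Dupd1) had no count in any library.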
